A study of Mus musculus with 6 samples.

Results

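Cytochrome c oxidase, complex IV of the respiratory chain, passes electrons from cytochrome c to oxygen and pumps protons across the inner mitochondrial membrane. Its catalytic core is encoded by mitochondrial DNA, and the surrounding subunits by nuclear genes. Some nuclear subunits exist as paired isoforms. COX6A2, COX7A1 and COX8B are the forms typical of heart and skeletal muscle, COX6A1, COX7A2 and COX8A are their ubiquitous partners, and COX4I2 is the lung and hypoxia partner of the ubiquitous COX4I1. COX7A2L, also known as SCAF1, is a relative of COX7A2 that joins complex IV to complex III. These 9 genes were followed in C2C12 myotubes after *Dj1* knockdown. Members were the probes listed under 1 of these 9 names, with upper and lower case treated alike. Of the 9 genes, 8 had a probe under their name, with 10 probes among the 45281 on the array. COX8A was not analysed here.

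The cells were C2C12 mouse myoblasts, which fuse into myotubes when serum is lowered. They received 60 nM of scramble siRNA or of siRNA against *Dj1* (gene symbol Park7), were moved to differentiation medium after 48 h, and were used as myotubes after 4 days of differentiation. Gene expression was then measured on 3 arrays per group, all 6 on the same Illumina mouse chip. The labels do not say whether the 3 samples of a group came from separate transfections, so that p-values measure the spread between these samples, which may be technical. Median raw signals of the scramble arrays were 162, 167 and 154, against 161, 167 and 152 for the *Dj1* knockdown. The 75th percentiles were 296.1, 301.9 and 275.7 against 285.5, 302.3 and 256.2. Signals below are log2 values after background correction and quantile normalization unless called raw. A probe counted as detected on an array when its detection p-value, which sets its signal against negative control beads, was under 0.05. The scramble arrays detected 16985, 17399 and 18179 probes, each fewer than any knockdown array (18704, 18857 and 18408). The part of this difference in the calls was not tested. Testing used limma on the 17890 probes detected on 3 or more arrays, and a probe was called when its p after Benjamini-Hochberg adjustment over all of them was under 0.05.

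The targeted transcript was examined first. Park7 stood at 13.59, 13.37 and 13.63 on the scramble arrays and at 12.48, 12.49 and 12.15 on the knockdown arrays. The groups were well apart, and 44.7% of the scramble signal was left (adjusted p = 0.00344 from limma).

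Of the 10 isoform probes, 9 passed the detection filter, and these belong to 7 genes. COX7A1, the muscle isoform of subunit 7A, fell after *Dj1* knockdown. COX6A2 and COX8B, the muscle isoforms of subunits 6A and 8, were not called, and neither was any tested ubiquitous partner. The only rise called was on 1 of 2 probes for COX7A2L. Thus 1 of the 9 tested probes was lower and 1 was higher, against 13.6% of all tested probes called lower, 16.5% called higher and 30.1% called in either direction. The share of isoform probes that changed was therefore not above that of the array as a whole. Scramble and knockdown arrays did not overlap for 3 of the 9 probes, against 48.5% of all tested probes. The median log2 fold change was 0.08 for the 9 probes, of which 5 were positive, and 0.05 for all tested probes. The median of the 9 was 0.15 with the 75th percentile scaling, where 8 were positive, and 0.02 without scramble replicate 2.

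**Figure D1:**
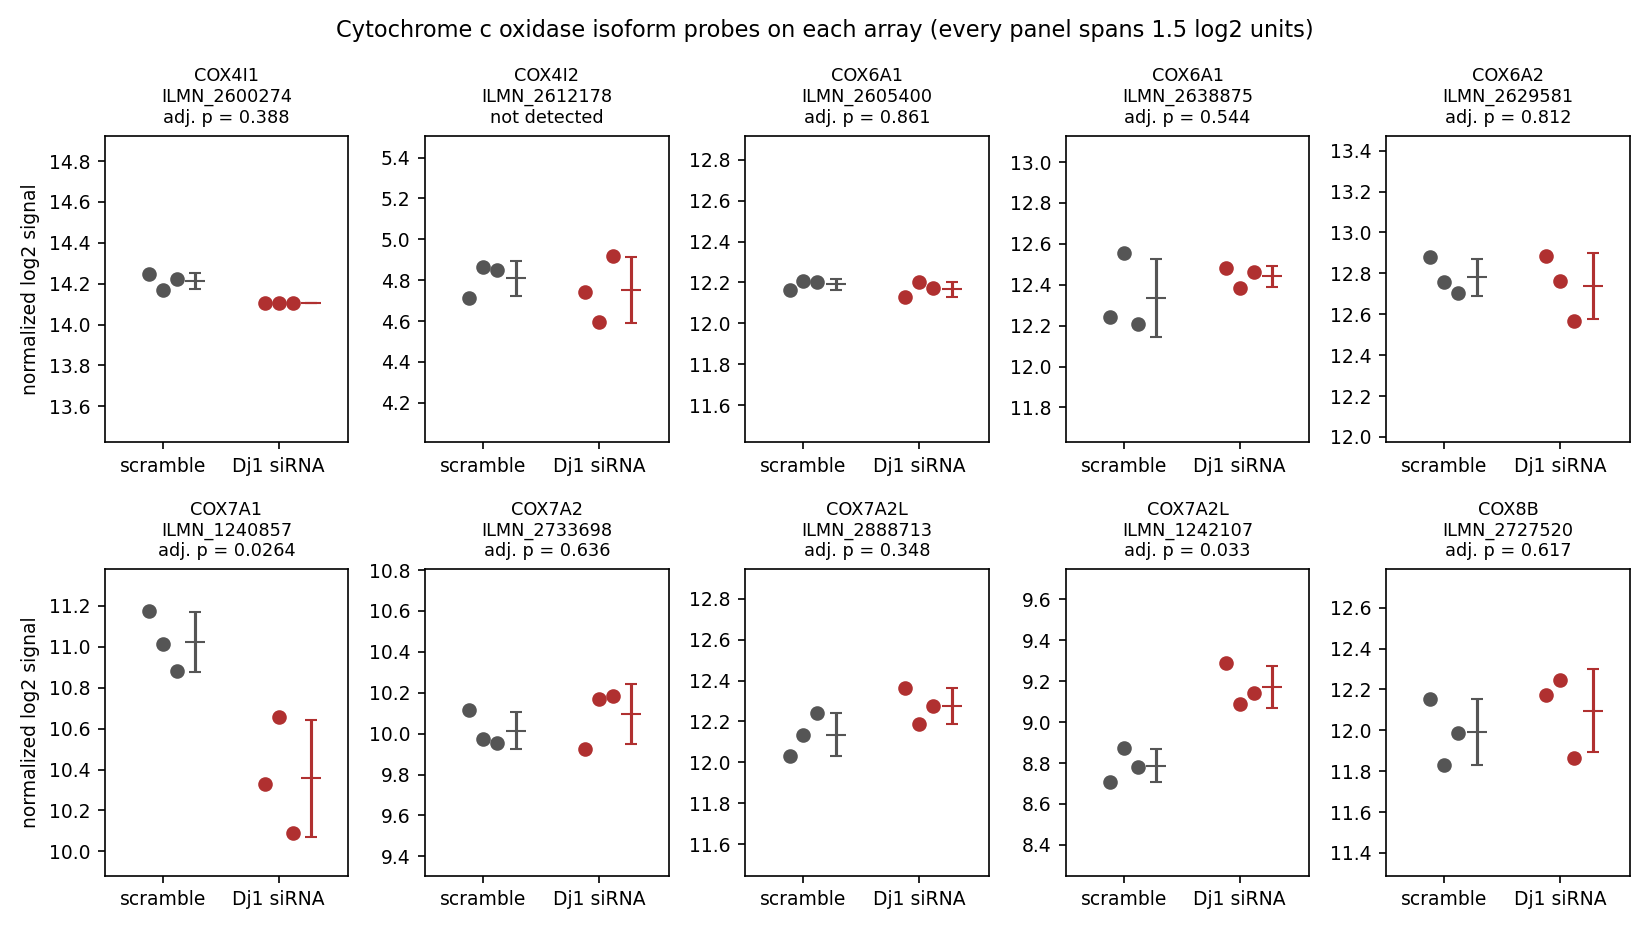
Normalized log2 signal of the 10 isoform probes on each array (points), with the group mean and SD beside them (n = 3 per group). Every panel spans the same range, and the widest separation is that of COX7A1, whose scramble arrays lie between 10.88 and 11.17 and whose knockdown arrays lie between 10.09 and 10.66.

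COX7A1 (probe ILMN_1240857) is the subunit 7A form that accumulates as muscle fibres mature. The scramble arrays gave 11.17, 11.01 and 10.88, and the knockdown arrays 10.33, 10.66 and 10.09. Every knockdown array lay below every scramble array, with replicate 2 of the knockdown closest to the scramble range. The means were 11.02 ± 0.15 and 10.36 ± 0.29 (SD, n = 3 each). The log2 fold change was -0.66 (standard error 0.17, 95% confidence interval -1.06 to -0.27, adjusted p = 0.0264 from limma), which left 63.1% of the scramble signal. Raw signals were 2478, 2218 and 1939 against 1425, 1918 and 1070. The closest pair of raw values, 1939 and 1918, differed by less than the standard errors over beads of 70.1 and 73.7 on those arrays.

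The fall of COX7A1 kept its direction in all 13 alternatives, but the call was close to the threshold. It was lost without scramble replicate 1 (-0.59, adjusted p = 0.0561), without scramble replicate 2 (-0.67, 0.0632), without knockdown replicate 1 (-0.65, 0.0841) and without knockdown replicate 3 (-0.53, 0.0755), each with 5 arrays instead of 6, and with no filter on dim probes (adjusted p = 0.0578, all from limma). Across the alternatives the adjusted p ran from 0.00104 to 0.0841. Bead noise also differed between the groups, with median bead standard errors of 11.3, 8.30 and 8.66 for scramble siRNA against 7.17, 6.36 and 5.88 for knockdown, and its part in the calls was not tested.

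COX7A2 (ILMN_2733698), the ubiquitous form of the same subunit, was at 10.12, 9.97 and 9.95 on the scramble arrays and at 9.93, 10.17 and 10.19 on the knockdown arrays. The groups overlapped, with a log2 fold change of 0.08 (95% confidence interval -0.19 to 0.35, adjusted p = 0.636 from limma). The difference between both isoforms within each array removes whatever is common to the array. Relative to the scramble mean, COX7A1 minus COX7A2 ran 0.05, 0.03 and -0.08 with scramble siRNA and -0.61, -0.52 and -1.10 with knockdown. The groups did not overlap, and the difference fell by 0.74 on the log2 scale (SD 0.07 and 0.31, n = 3 each, two-sided exact permutation test, p = 0.1). This is the smallest p that 3 arrays against 3 allow, so the design cannot reach 0.05. After Benjamini-Hochberg adjustment over the 5 isoform differences computed, p was 0.167 (exact permutation test). COX7A1 relative to COX7A2 was thus at 59.7% of its scramble value.

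The upstream sequence of Cox7a1 is shown with that of Cox8b, a muscle isoform that was not called, and with that of Cox7a2, its ubiquitous partner. Only Cox7a1 was called of these 3 genes. Promoter entries of RefSeq (GRCm38.p6) were matched for 6 of the 9 genes, not for Cox4i1, Cox4i2 and the muscle isoform Cox6a2. The 250 bases that end at the start site are given 5′ to 3′ on the strand of the gene, chr7:30183921-30184170 (plus strand) for Cox7a1, chr7:140900447-140900696 (minus strand) for Cox8b and chr9:79759854-79760103 (minus strand) for Cox7a2. Capitals mark the E-box CANNTG, a general pattern that includes the sites of myogenic factors such as MyoD but is not specific to them. It reads CAAATG in Cox7a1, CAGCTG in Cox8b and CAAGTG in Cox7a2.
Cox7a1: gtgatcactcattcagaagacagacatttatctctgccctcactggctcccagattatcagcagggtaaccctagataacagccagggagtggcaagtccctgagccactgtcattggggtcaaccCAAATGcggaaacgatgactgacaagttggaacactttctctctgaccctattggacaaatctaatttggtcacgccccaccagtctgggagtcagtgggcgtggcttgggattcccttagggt
Cox8b: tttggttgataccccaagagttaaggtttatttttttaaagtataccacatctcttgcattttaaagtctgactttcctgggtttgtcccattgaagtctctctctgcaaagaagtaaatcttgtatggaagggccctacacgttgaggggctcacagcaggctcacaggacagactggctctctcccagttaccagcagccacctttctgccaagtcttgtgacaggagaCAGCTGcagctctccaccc
Cox7a2: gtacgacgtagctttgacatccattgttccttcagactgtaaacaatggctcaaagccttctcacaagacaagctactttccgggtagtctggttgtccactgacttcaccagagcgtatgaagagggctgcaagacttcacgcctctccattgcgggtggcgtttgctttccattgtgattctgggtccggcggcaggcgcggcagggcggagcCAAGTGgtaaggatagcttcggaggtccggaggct
Each of the 3 windows holds 1 E-box, starting 124 bases before the start site in Cox7a1, 19 bases before it in Cox8b and 35 bases before it in Cox7a2. On either strand, 66.2% of the 32851 promoters in the table hold an E-box in the same window. None of the 6 windows holds the MEF2 consensus or the letters AAGGTCA read by ERR receptors, which 2.92% and 4.08% of all promoters hold. The hypoxia element ACGTG is found in Cox8b (16.6% of all promoters) and the ETS letters CCGGAAG in Cox6a1 (6.91%). YY1 letters (AAGATGG, 4.49% of all promoters) and the NRF1 consensus (1%) have no match in any of the 6. The CG dinucleotide, by contrast, differs widely. It occurs 4 times upstream of Cox7a1 and 1 time upstream of Cox8b, against 14 times for Cox7a2, 26 for Cox6a1, 13 for Cox7a2l and 11 for Cox8a, with a median of 6 over all promoters. In these windows the muscle isoforms Cox7a1 and Cox8b are poorer in CG than the 4 other genes, and Cox6a2 had no window to compare. A match of letters is a description of the sequence, and binding was not measured.

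Subunit 6A sits next to the dimer interface of the complex, and its muscle form is COX6A2. COX6A2 (ILMN_2629581) was at 12.88, 12.76 and 12.70 on the scramble arrays and at 12.88, 12.76 and 12.57 on the knockdown arrays. The groups overlapped almost entirely, with a log2 fold change of -0.04 (95% confidence interval -0.33 to 0.24, adjusted p = 0.812 from limma), and the sign turned with the 75th percentile scaling. A fall as large as that fitted for COX7A1 lies outside this interval. The ubiquitous COX6A1 has 2 probes. The first (ILMN_2638875) was at 12.24, 12.55 and 12.21 against 12.48, 12.38 and 12.46, a log2 fold change of 0.11 (adjusted p = 0.544), and the other (ILMN_2605400) ran from 12.13 to 12.21 over all 6 arrays (-0.02, adjusted p = 0.861), with a sign that also turned with the scaling. Within arrays, COX6A2 minus the first COX6A1 probe differed by -0.15 between the groups (SD 0.22 and 0.17, n = 3 each, two-sided exact permutation test, p = 0.4, adjusted 0.5). With the mean of both COX6A1 probes the difference was -0.08, and with an array left out it lay between -0.27 (without scramble replicate 2) and -0.06 (without scramble replicate 1).

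COX8B (ILMN_2727520), the muscle form of subunit 8, was at 12.15, 11.83 and 11.99 on the scramble arrays and at 12.17, 12.25 and 11.86 on the knockdown arrays. The highest and the second lowest value both came from the knockdown group. The log2 fold change was 0.10 (95% confidence interval -0.24 to 0.45, adjusted p = 0.617 from limma). No comparison with COX8A was made.

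COX4I1 (ILMN_2600274), the ubiquitous form of the subunit through which ATP inhibits the enzyme, was at 14.25, 14.17 and 14.22 on the scramble arrays and at 14.11, 14.10 and 14.10 on the knockdown arrays. The groups did not overlap, yet the log2 fold change of -0.11 was not called (95% confidence interval -0.32 to 0.10, adjusted p = 0.388 from limma), and it was 0.061 with the 75th percentile scaling after background correction. COX4I2 (ILMN_2612178), the lung form that also responds to low oxygen, was not detected on any of the 6 arrays. Its raw signals of 138 to 157 had detection p-values between 0.283 and 0.881, so neither a fold change nor its difference from COX4I1 was calculated.

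COX7A1 was the only muscle isoform called. Set against the other muscle forms within each array, COX7A1 minus COX6A2 fell by 0.62 in the knockdown (SD 0.06 and 0.24, n = 3 each) and COX7A1 minus COX8B fell by 0.77 (SD 0.15 and 0.13, n = 3 each). Neither pair of groups overlapped, and each gave p = 0.1 and 0.167 after adjustment over the 5 differences (two-sided exact permutation test). Both of these differences were chosen after the values had been seen. A difference within an array shows that 2 transcripts changed unequally and does not show that either was constant.

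**Figure D2:**
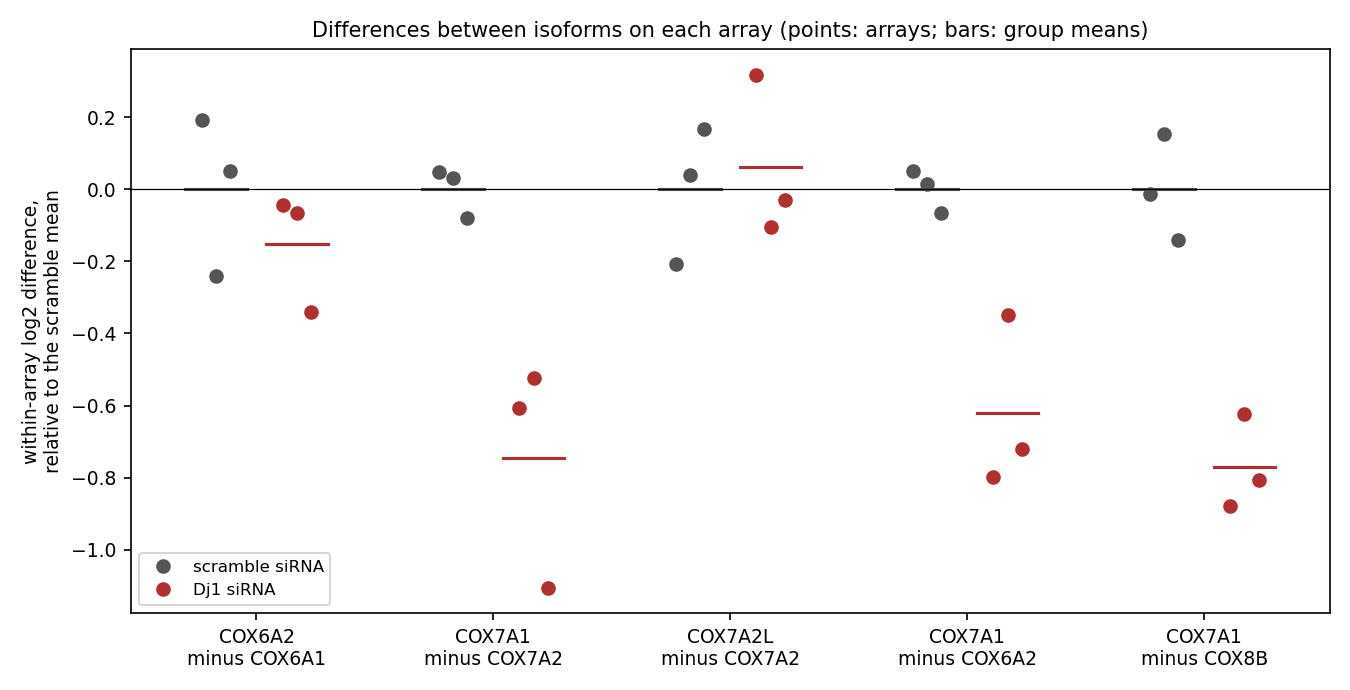
Within-array log2 differences between isoform probes, relative to the mean of the scramble arrays, for the 3 differences within related isoforms and the 2 between muscle isoforms of different subunits. Points are arrays and bars are group means (n = 3 per group), and the groups separate in the 3 differences that contain COX7A1.

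COX7A2L gave different results on its 2 probes. The first probe (ILMN_2888713), which matched the RefSeq gene, was at 12.03, 12.13 and 12.24 on the scramble arrays and at 12.36, 12.19 and 12.28 on the knockdown arrays, a log2 fold change of 0.14 (95% confidence interval -0.11 to 0.39, adjusted p = 0.348 from limma). The second probe (ILMN_1242107) carries the name COX7A2L in the file but matched no RefSeq entry, so the transcript it reads is less certain. It was at 8.71, 8.87 and 8.78 against 9.29, 9.09 and 9.14. All 3 knockdown arrays were higher, and the rise was 0.39 in log2 (standard error 0.10, 95% confidence interval 0.14 to 0.63, adjusted p = 0.0330 from limma). Its call was lost without scramble replicate 1 (0.35), without scramble replicate 3 (0.38), without knockdown replicate 1 (0.33), 2 (0.43) or 3 (0.40), where the adjusted p was 0.0516 or more, with no filter (adjusted p = 0.0756) and with a replicate block (adjusted p = 0.0784). Over all alternatives the log2 fold change ran from 0.29 to 0.43. The first probe of COX7A2L minus COX7A2 differed by 0.06 between the groups (SD 0.19 and 0.22, n = 3 each, two-sided exact permutation test, p = 0.7, also 0.7 after adjustment).

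Subunits of the complex without a muscle form in the list were then examined, together with Ndufa4, a complex IV subunit once assigned to complex I. Of their 13 genes, 7 had a tested probe. Of the 9 tested probes, 5 fell and none was called higher, also not at an unadjusted p under 0.05 (limma), against 13.6% of all tested probes called lower and 16.5% called higher. The median log2 fold change was -0.35, against 0.05 for all tested probes. Ndufa4 was at 13.67, 13.54 and 13.67 on the scramble arrays and at 12.93, 13.03 and 12.98 on the knockdown arrays, and fell by 0.65 (limma, standard error 0.09, adjusted p = 0.00534). This fall was called in all 13 alternatives. Cox5b, which binds zinc on the matrix side, fell on its 2 tested probes (-0.49 and -0.39, adjusted p = 0.0108 and 0.0480), and Cox7b fell by 0.43 (adjusted p = 0.0216). The fifth call, named after its value was seen, was MT-CO2, a core subunit encoded by mitochondrial DNA, which was at 14.53, 14.50 and 14.55 against 14.19, 14.16 and 14.18 (-0.35, adjusted p = 0.0260). The MT-CO2 probe matched no RefSeq entry.

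The other falls were less stable. The larger Cox5b fall was called in 12 alternatives and Cox7b in 9, against 4 each for the smaller Cox5b fall and MT-CO2. All 9 probes had a negative log2 fold change with quantile normalization, but with the 75th percentile scaling 3 were positive after background correction and 2 without it, and the median moved to -0.14 and -0.20. The number called lower was then 3 in each case. It was also 3 with no filter and without scramble replicate 2 or knockdown replicate 2, was 2 with a replicate block and without scramble replicate 3 or knockdown replicate 3, and was 1 without knockdown replicate 1. Summed over the list, normalized signals were 115811, 113904 and 119529 with scramble siRNA and 96356, 98371 and 92208 with *Dj1* knockdown, so that every knockdown array was lower. Such a sum weighs bright probes most, and the brightest was that of MT-CO2, whose call was among the least stable.

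**Figure D3:**
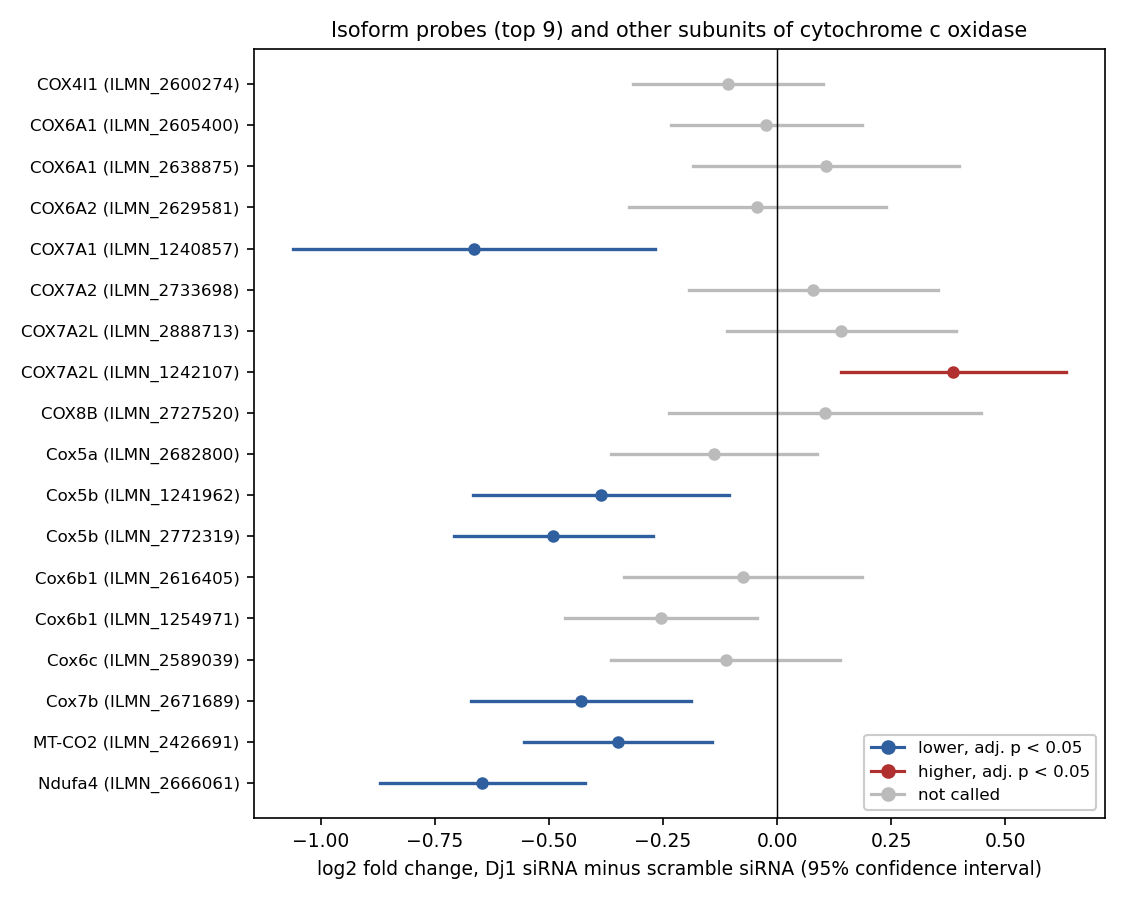
Log2 fold changes of the tested isoform probes (the upper 9) and of the other subunit probes (the lower 9), *Dj1* knockdown minus scramble siRNA, with 95% confidence intervals from limma (3 arrays per group). Blue marks probes called lower, red called higher and grey not called; COX7A1 at -0.66 and Ndufa4 at -0.65 lie farthest to the left.

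Factors that build the complex changed in both directions. They insert heme and copper, stabilize mitochondrial transcripts or join modules of the enzyme. Of 27 genes, 23 had a tested probe, and of 31 tested probes 7 were lower, 5 were higher and 19 were not called. Over all tested probes 13.6% were lower and 16.5% higher, so the share that rose was close to that of the array. The median log2 fold change was -0.13, against 0.05. Cox10, which makes the heme O precursor of heme A, was at 10.34, 10.44 and 10.40 on the scramble arrays and at 9.63, 9.72 and 9.62 on the knockdown arrays, a fall of -0.73 (standard error 0.09, adjusted p = 0.00374 from limma) that was called in all 13 alternatives. The other large falls were those of Lrpprc, a binding protein of mitochondrial mRNA (-0.84 on 1 of 3 probes, -1.01 to -0.47 over the alternatives, call lost without knockdown replicate 1 or 3), the copper-linked factor Cox19 (-0.60) and the copper chaperone Sco1 (-0.58 on 1 of 2 probes). The call of Sco1 held in only 3 of 12 alternatives, with log2 fold changes from -0.71 to -0.19. The 3 remaining calls, outside the rule for named probes and named after their values were seen, were the LRPPRC partner Slirp (-0.50 on 1 of 2 probes), the heme A synthase Cox15 (-0.44) and Coa3 (-0.44 on 1 of 2 probes).

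Among the 5 probes that rose were the membrane insertase Oxa1l (0.56), Higd2a (0.54), Cmc1 (0.48 on 1 of 2 probes) and Surf1 (0.46 on 1 of 2 probes). The fifth, named after its value was seen, was Higd1a (0.44). Higd2a was at 12.34, 12.21 and 12.29 on the scramble arrays and at 12.78, 12.79 and 12.90 on the knockdown arrays (standard error 0.10, adjusted p = 0.00905 from limma). Higd2a and this Cmc1 probe were called in all 13 alternatives, while the second Cmc1 probe gave -0.11 (adjusted p = 0.443). Most other assembly calls were lost in some alternatives. Leaving out knockdown replicate 1 left 1 probe lower and 3 higher, and leaving out knockdown replicate 3 left 2 in each direction. The number lower was 4 without scramble replicate 2 or 3 and with no filter, and the number higher was 3 without scramble replicate 1 or 2 and with no filter.

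**Figure D4:**
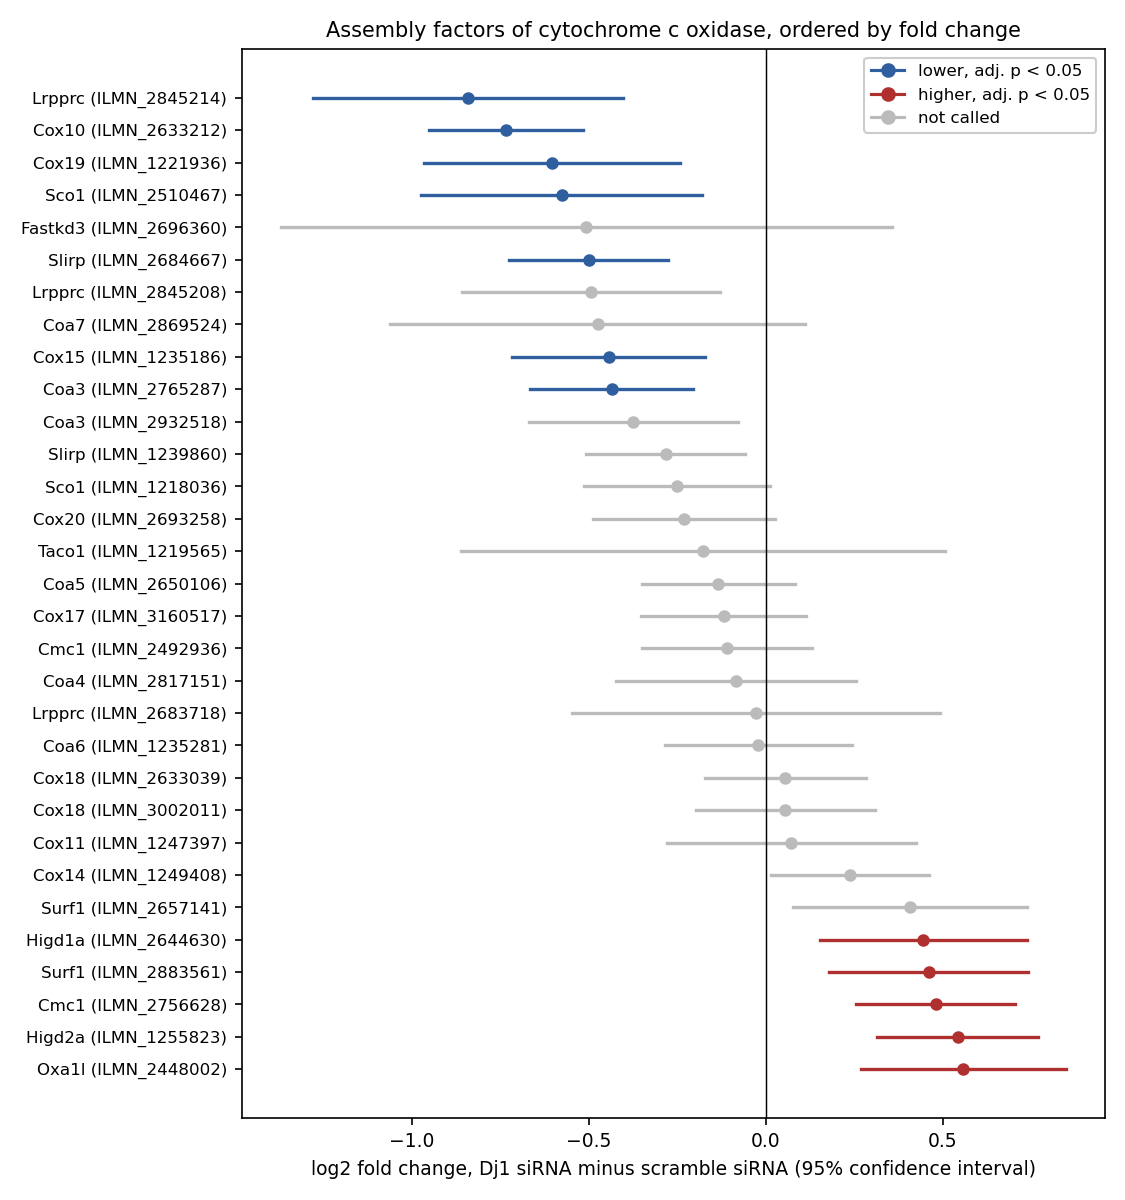
Log2 fold changes of the 31 tested probes of complex IV assembly factors, *Dj1* knockdown minus scramble siRNA, with 95% confidence intervals from limma (3 arrays per group). Probes are ordered by fold change, from Lrpprc at -0.84 to Oxa1l at 0.56, and blue, red and grey mark lower, higher and not called.

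The electron donor side was examined as cytochrome c with its heme lyase and complex III. Of 12 tested probes in 9 genes, 1 was lower and 1 higher, against 13.6% and 16.5% of all tested probes. Cytochrome c itself (Cycs) was at 12.33, 12.36 and 12.26 against 11.67, 11.93 and 11.58 on the probe called, a fall of -0.59 (standard error 0.12, adjusted p = 0.0142 from limma), and its other two tested probes were not called (-0.37 and -0.38). Hccs, which attaches heme to cytochrome c, rose by 0.52 (adjusted p = 0.0294). Both calls were lost without knockdown replicate 1 or 3, and that of Hccs also without scramble replicate 2 or 3 and with no filter. Over all alternatives the log2 fold change lay between -0.69 and -0.46 for Cycs and between 0.35 and 0.59 for Hccs. None of the 8 tested probes for complex III subunits was called, with UQCRB closest (-0.35, adjusted p = 0.0561, named after its value was seen). The UQCRB probe matched no RefSeq entry. The number lower on the whole list was 2 with strict detection and without scramble replicate 1, and 3 with a variance trend.

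Genes linked to the control of these subunits, mostly transcription factors and coactivators, were then read. Of 25 regulators, 20 had a tested probe, and 6 of 32 tested probes were lower and 4 higher, against 13.6% and 16.5% of all tested probes. Of the 6 lower probes, 4 carry the name Mef2c. Mef2c, a factor of muscle genes, fell on 3 probes (-2.61, -2.48 and -2.37, adjusted p = 0.00277, 0.00308 and 0.00277 from limma). On the last of these it was at 12.01, 11.94 and 11.99 on the scramble arrays and at 9.55, 10.07 and 9.21 on the knockdown arrays, and these 3 falls were called in all 13 alternatives. Another probe under this name, without a RefSeq match and detected on 2 scramble arrays and 1 knockdown array, was also called lower (adjusted p = 0.0421), but this held in 2 of the 9 alternatives that tested it, with log2 fold changes from -0.65 to -0.14. Myod1 fell by 0.90 (adjusted p = 0.00317) and was also called in all 13. Esrrb, of the ERR receptor family, fell by 1.22 (adjusted p = 0.00323), but it was detected on only 2 of the 3 knockdown arrays and its log2 fold change ran from -1.30 to -0.43 over the alternatives, so its size is uncertain. Sp1 rose by 1.23 on 1 of 2 probes (adjusted p = 0.00429, called in all 13 alternatives, 0.54 and adjusted p = 0.191 on the other).

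The GABP subunits were less clear. Gabpb1 rose on 2 probes (0.93 and 0.72, adjusted p = 0.0450 and 0.0251 from limma), whereas Gabpa rose on 1 probe (0.77, adjusted p = 0.0470) and not on another (-0.37, adjusted p = 0.115). Without knockdown replicate 3, and with no filter, 1 regulator probe was called higher, against 2 with a replicate block and without knockdown replicate 1 or scramble replicate 2. Over the alternatives the log2 fold changes ran from 0.53 to 1.21 and from 0.36 to 0.86 for Gabpb1 and from 0.37 to 0.97 for Gabpa, and their calls held in 6, 9 and 6 of 13. Neither Ppargc1a (0.27, adjusted p = 0.178) nor Myog (0.22 and -0.11, adjusted p = 0.212 and 0.432) was called.

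Other mitochondrial proteins with a muscle form gave a mixed picture as well. Of 6 tested probes in 4 genes 2 were called lower, against 13.6% of all tested probes. These 2 probes of Ckmt2, the creatine kinase of muscle mitochondria, fell (-1.38 and -1.40, adjusted p = 0.0228 and 0.0201 from limma). It was at 11.27, 10.38 and 10.83 on the scramble arrays and at 9.49, 9.99 and 8.87 on the knockdown arrays for the first probe. The other 4 probes, also named after their values were seen, were not called, with Slc25a4 at -0.50 and 0.17, Cpt1b at -0.35 and Ucp3 at 0.46 (adjusted p = 0.216, 0.535, 0.282 and 0.142). None of the list was higher, also not at an unadjusted p under 0.05 (limma), though 1 probe was without scramble replicate 3. Without knockdown replicate 3, 1 probe other than those of Ckmt2 was called lower. Both Ckmt2 calls were lost when scramble replicate 3, or knockdown replicate 1 or 3, was left out, with log2 fold changes over all alternatives between -1.66 and -1.08. The call at -1.40 was also lost with a replicate block. Of the ubiquitous partners only Slc25a5, named after its value was seen, was tested (-0.11, adjusted p = 0.397).

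Many myotube probes were also lower, while others were not called. Of 36 tested probes in 21 genes, 22 were lower and 2 higher, against 13.6% and 16.5% of all tested probes, and 12 were not called. The median log2 fold change was -0.50, against 0.05 for all tested probes. Summed over these probes, the scramble arrays gave 441895, 428849 and 428644 and the knockdown arrays 346469, 364979 and 325853. Of the fast myosin heavy chains, Myh1 fell on its 2 probes (-2.19 and -1.93). Myh4 fell from raw signals of 717, 504 and 717 to 160, 181 and 155 (adjusted p = 0.00224 from limma). A probe for MYH2, without a RefSeq match, was also called lower, but no knockdown array detected it. It passed the filter only through the scramble arrays, so this call is counted among the 22 but not taken as a result. Only 1 knockdown array detected Myh4, so it too needed the scramble arrays to pass the filter. Its call is likewise counted but not taken as a result. Log2 fold changes over the alternatives ran from -3.98 to -1.90 for Myh4 and from -1.72 to -0.53 for MYH2, so these sizes are uncertain. Ckm was not called (-0.07, adjusted p = 0.705), and Ttn probes went in both directions. Of these, 3 fell (-0.59, -0.76 and -0.64, named after their values were seen) and 2 rose. The larger rise was 1.77 in log2, on a probe that matched no RefSeq entry. The first of those that fell had no match either. The other Ttn probe called higher (0.76, adjusted p = 0.0309 from limma), also without a match, was detected on 1 scramble array. Its call held in 6 of 12 alternatives, with log2 fold changes from 0.24 to 0.99. The number lower was 13 without scramble replicate 3 or knockdown replicate 1 and 11 without knockdown replicate 3. The number higher was 1 with no filter, with strict detection and without any 1 array other than scramble replicate 3. RNA came from whole cultures, so fewer myotubes and less RNA per myotube cannot be told apart, and the part of either in the fall of COX7A1 was not tested.

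Markers of other states were examined for the same reason. Of 4 tested myoblast probes Myod1 was lower (2 probes were in some alternatives). With the 75th percentile scaling without background correction, 1 myoblast probe was called higher. The sum of the 4 over the scramble arrays ran 8447, 8815 and 8597, against 7241, 7754 and 8104 in the knockdown. Of 11 proliferation probes, Ccnb1 (-0.57, adjusted p = 0.0161, on 1 of 2 probes, with -0.31 and adjusted p = 0.166 on the other) and Pcna (-0.57, adjusted p = 0.00916) were lower and 0 were higher (limma, 4 at an unadjusted p under 0.05), against 13.6% and 16.5% of all tested probes. The Ccnb1 call was lost without knockdown replicate 1 or 3. Yet 7 of the 11 were positive, with a median of 0.20, and 2 to 3 were called higher without background correction, with either 75th percentile setting, with strict detection and with a variance trend. Their summed signal was 5999, 6381 and 5886 against 5641, 6261 and 5930. No marker of adipocytes, brown fat or endothelium passed the detection filter. Of the cardiac and macrophage markers only Myh6 (0.68, adjusted p = 0.103) and Cd68 (0.52, adjusted p = 0.169) did, both named after their values were seen, and neither was called. With 1 array left out Myh6 ran from 0.39 to 0.95 and was called without scramble replicate 3, and it was also called with the 75th percentile scaling without background correction. Cd68 ran from 0.35 to 0.83 and was called without scramble replicate 2. The part of these in the isoform results was not tested.

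The profile of each muscle isoform over the 6 arrays was compared with that of every tested probe of another gene, as the root mean square difference after centring. Nearest to COX7A1 were Gemin4 (0.0492), Dph1 (0.0510) and Gsdmd (0.0576), a likeness by which they were picked, so their fall is no separate result. COX6A2 lay nearest to Pla2g12a (0.0353), Coq10a (0.0373) and Kmt2c (0.0401), and COX8B to Plpp3 (0.0347), Rab10 (0.0486) and LOC100044736 (0.0495).

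Each group received a single siRNA, so loss of DJ-1 and an off-target effect of the siRNA cannot be told apart. With 3 arrays per group on 1 chip, the 95% confidence intervals of the isoforms not called reach from -0.33 to 0.45, so smaller changes could be missed. Transcripts were measured, not subunit protein, complex IV content or its activity. Probe signals do not give the proportion of isoforms in the enzyme.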

How the data were processed

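The deposited probe report gives, per array, the signal intensity of each probe as computed by the authors with the vendor software and its detection p-value; bead standard errors were read for noise only. Intensities were background-corrected (normexp, negative controls inferred from the detection p-value, offset 16), quantile normalized and log2 transformed with neqc. Probes detected at p under 0.05 on at least 3 of 6 arrays (17890 of 45281) were fitted with limma and adjusted by Benjamini-Hochberg. Isoform differences were tested by exact permutation. Gene symbols and promoters came from RefSeq (GRCm38.p6, 32345 probes matched). Named were every isoform and Park7 probe, at most 4 called probes per direction of each other list, the 3 nearest profiles, and Mef2c, Myog, Ppargc1a and Ckm; other names are marked in the text as chosen after their values were seen. Members and lists were chosen with earlier results of these data known. R 4.3.3, limma 3.58.1 and Python 3.11.15 were used.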

Additional observations from a re-analysis of the deposited data

How the results depend on the processing

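Calls were repeated under 13 alternatives. The number of changed probes (5387) was 3519 with no filter, where more probes were tested, 4350 with a replicate block, and 2444 to 5302 with an array left out, where fewer arrays were compared. Changed isoform probes (2) were 0 with no filter (2 at unadjusted p under 0.05, limma), 1 with the replicate block and 0 to 1 with an array left out. Residuals of equal replicate number correlated at 0.054, 0.047 and 0.020, against -0.047 to -0.004 for unequal numbers. All of these were small, and the labels do not say whether the numbers pair. With the 75th percentile scaling, with and without background correction, the log2 fold change changed sign for COX4I1 (0.061 and 0.0044), COX6A1 probe ILMN_2605400 (0.103 and 0.0462) and COX6A2 (0.110 and 0.0535), the last also with an array left out (-0.119 to 0.0417). The cause was not tested. Of the isoform differences, COX7A2L minus COX7A2 (0.06) ran from -0.07 to 0.15 with an array left out, and was 0.18 with the mean of the probes of a gene and 0.12 with the 75th percentile scaling. COX6A2 minus COX6A1 (-0.15) ran from -0.27 to -0.06, and the 3 with COX7A1 stayed negative. COX7A1 minus COX6A2 had p = 0.2 without any 1 scramble array, and p (exact permutation test) could not fall under 0.05 in any alternative. COX8B minus COX8A (no COX8A probe analysed here) and COX4I2 minus COX4I1 (COX4I2 not detected) could not be run.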
